A study of Mus musculus with 26 samples.

Results

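The 5 genes described here are Cdx1 and Cdx2 of the caudal family and Gsx1, Gsx2 and Pdx1, which with the Cdx genes make up the ParaHox class of homeobox genes. A region of a deposited table was assigned to a gene when it overlapped the 1.5 kb either side of a RefSeq start site of that gene, and the region with most overlap was kept in each table. The 5 genes are among 18761 genes with such a promoter region in at least 1 of the 12 tables, and they hold 45 of the 338442 regions listed. E14 mouse embryonic stem cells, an established line kept here as a non-clonal culture in serum and LIF, were profiled in replicates 1 and 2. WT clones 57 and 58 and clones 43 and 53 that lack both Dppa2 and Dppa4 (DPPA2/4 DKO), all from the E14 line, were profiled in 2 clones per genotype, so each clone sample represents 1 clone. Each set of 2000000 cells gave an H3K4me3 ChIP followed by an H3K27me3 ChIP (K4-K27), the reverse order (K27-K4), and in-line totals, for which 10% of the material of the first ChIP was kept back. A reChIP is designed to enrich fragments with both marks, although signal of the first ChIP can carry through, and the study notes that the H3K4me3 antibody may also recognise H3K4me2. A total holds fragments with its own mark, whether or not they carry the other. There was 1 IgG–IgG reChIP for E14 (replicate 1) and 1 for the clones (WT clone 57), giving 26 libraries.

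Homeobox genes encode transcription factors that assign identity to cells along the body axes and within organs, and the ParaHox genes are the evolutionary sister group of the Hox genes. Their promoters lie in CpG-rich sequence and are textbook examples of bivalent promoters in embryonic stem cells, where H3K4me3, the mark of active or poised promoters, and H3K27me3, deposited by Polycomb repressive complex 2, occur together while the genes are silent. Cdx1 and Cdx2 pattern the posterior axis and the intestinal epithelium, and Cdx2 also drives trophectoderm formation. Gsx1 and Gsx2 pattern the ventral forebrain, and Pdx1 is needed for pancreas and duodenum development. DPPA2 and DPPA4 are DNA-binding proteins of pluripotent cells that bind CpG-rich promoters. The comparison of DKO with WT clones addresses whether bivalent chromatin at these promoters depends on the 2 factors.

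The number of reads behind the deposited values, recovered from their steps, ranged from 6741244 to 47903462 per library (median 16875026). These numbers are not sequencing depths. The 8 embryonic stem cell markers Pou5f1, Nanog, Sox2, Klf4, Zfp42, Esrrb, Tdgf1 and Utf1 all had a total H3K4me3 promoter region in the E14, WT and DKO tables. Such a region was also listed for 3 of 3 fibroblast markers in E14 and WT and 2 of 3 in DKO (log2 enrichment over IgG–IgG 1.14 to 2.99), for 2, 2 and 1 of 3 primitive endoderm markers (Gata4 0.95 to 1.08 in E14, 4.67 to 5.73 in WT and 5.43 to 5.62 in DKO, Sox17 -0.27 to 0.62 in WT, and Gata6 1.28 to 1.30 in E14 with no region in WT or DKO), and for 0, 1 and 1 of 2 trophectoderm markers. A promoter mark does not show expression, and the part of other cells in the results was not tested. The Dppa2 promoter had total H3K4me3 values of 1.9 and 0.77 in WT clones 57 and 58 and of 2.08 and 1.34 in DKO clones 43 and 53, and the Dppa4 promoter had 2.34 and 1.45 in WT and 2.39 and 1.56 in DKO, so signal at these promoters did not check the deletion. All values below are log2 RPM per kb of region as deposited, where RPM are reads scaled to 1000000 reads of the library. They are averages over the cell population, and a mark lost in some cells cannot be told apart from a lower level in every cell.

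Gsx1, Pdx1 and Cdx2 form the ParaHox cluster on chromosome 5 (mm10). The start site of Gsx1 (plus strand) is at 147188696, that of Pdx1 (plus strand) at 147270097 and that of Cdx2 (minus strand) at 147307249, 81.4 kb and 37.2 kb apart. Gsx2 starts at 75075601 on the same chromosome (plus strand). Plut, a long non-coding RNA antisense to Pdx1, starts 1.42 kb downstream of the Pdx1 start site inside its intron, so ChIP signal at the Pdx1 promoter cannot be separated from that of the Plut promoter. The 250 bases upstream of the cluster's start sites are shown because Pdx1 was called lower in the DKO clones and its neighbours were not. They were taken from RefSeq (GRCm38.p6) and run 5′ to 3′ along the strand of the gene, with each CG dinucleotide in capitals. Sequences were matched for 4 of the 5 genes.
Pdx1, chr5:147269847-147270096, plus strand: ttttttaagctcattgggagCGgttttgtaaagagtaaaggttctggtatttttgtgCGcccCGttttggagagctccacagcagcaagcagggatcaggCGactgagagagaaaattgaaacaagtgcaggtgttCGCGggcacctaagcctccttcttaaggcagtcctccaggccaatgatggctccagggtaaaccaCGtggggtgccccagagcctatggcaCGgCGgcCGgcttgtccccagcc
Gsx1, chr5:147188446-147188695, plus strand: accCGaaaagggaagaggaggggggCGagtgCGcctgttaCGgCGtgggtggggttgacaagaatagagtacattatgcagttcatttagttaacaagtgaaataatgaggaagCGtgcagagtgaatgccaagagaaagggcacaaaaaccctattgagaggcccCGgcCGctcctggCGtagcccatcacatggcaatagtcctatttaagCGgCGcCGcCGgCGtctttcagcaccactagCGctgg
Cdx2, chr5:147307250-147307499, minus strand: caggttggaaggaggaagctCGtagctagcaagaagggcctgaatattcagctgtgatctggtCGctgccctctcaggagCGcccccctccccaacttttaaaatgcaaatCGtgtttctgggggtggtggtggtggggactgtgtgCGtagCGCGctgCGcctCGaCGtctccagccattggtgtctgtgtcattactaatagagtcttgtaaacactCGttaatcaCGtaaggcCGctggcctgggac

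The Pdx1 stretch holds 10 CG dinucleotides, that of Cdx2 13, that of Gsx1 15 and that of Gsx2 16, against a median of 6 over 32851 promoter sequences of the same length. As many or more CG as at Pdx1 occur in 37.8% of those sequences, and as many or more as at Gsx2 in 25.4%. CG reads the same on both strands. Over the whole K4-K27 regions of the WT table there were 34.1 CG per kb at Pdx1, 39.7 at Gsx2, 44.4 at Gsx1, 45.2 at Cdx1 and 48.7 at Cdx2. The median of the 26544 regions of that table was 33.8 CG per kb, and 49.5% of them held as many CG per kb as Pdx1. Pdx1 was the lowest by both counts, of 4 genes in the first and of 5 in the second. These are descriptions of sequence, and no relation to the marks was tested.

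Cdx1 starts at 61036199 on chromosome 18 (minus strand). A promoter region was listed for 45 of the 60 combinations of gene and table. Gsx1 had one in 11 of 12 tables, Cdx1, Cdx2 and Gsx2 in 9 each, and Pdx1 in 7. Both E14 reChIP tables and both WT reChIP tables listed all 5 genes. In E14 cells the total H3K4me3 table listed only Cdx2 and Gsx1, and the total H3K27me3 table listed all but Gsx1. In the WT clones total H3K4me3 regions were listed at Gsx1, Gsx2 and Pdx1, and total H3K27me3 regions at all 5. Pdx1 had a region in all 4 WT tables and in 0 of the 4 DKO tables. As a description of how often that occurs, 3328 genes had a promoter region in all 4 WT tables, and 159 of them (4.78%) had one in 0 of the 4 DKO tables. The other 4 genes kept a region in both DKO reChIP tables, although Cdx2 and Gsx2 had no promoter region in either DKO total table. The map of region extents shows how wide the E14 reChIP regions are and that the Pdx1 row is empty for the DKO clones.

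**Figure D1:**
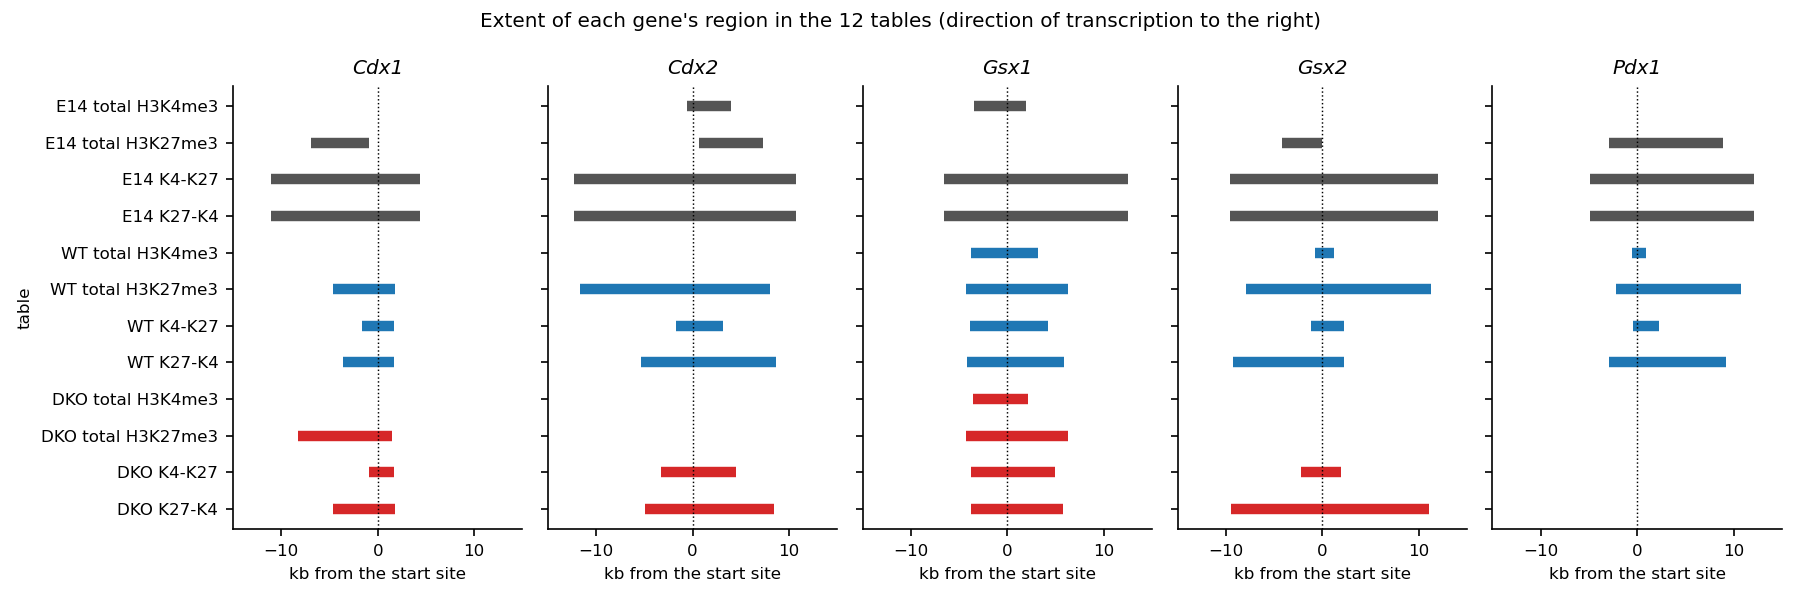
Extent of the promoter region of each gene in each of the 12 tables, in kb from the start site along the direction of transcription. Each bar is 1 region (grey E14, blue WT, red DKO), the dotted line is the start site, and a row without a bar is a table with no region at that promoter. The Pdx1 panel has bars in 3 E14 and 4 WT rows and in 0 DKO rows.

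In E14 cells the region around each gene was identical in the K4-K27 and K27-K4 tables and was wide. It spanned 15.45 kb at Cdx1, 16.95 kb at Pdx1, 19.05 kb at Gsx1, 21.6 kb at Gsx2 and 22.95 kb at Cdx2, whereas the median of the 21857 regions shared by both reChIP tables was 3300 bp. Only 2.42% of the shared regions were as wide as that of Cdx1, and 0.709% were as wide as that of Cdx2. The Cdx2, Gsx1, Gsx2 and Pdx1 regions covered the whole transcript, while the Cdx1 region ended inside the gene. The Cdx1 region also holds the start site of Pdgfrb (chr18, 61045150), a receptor tyrosine kinase gene, so its values cannot be separated from those of the Pdgfrb promoter. These regions come from E14 libraries and were used to set all 26 libraries side by side at the same coordinates.

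Cdx2 was the highest of the 5 genes in most E14 and WT libraries. Its K4-K27 values at the E14 region (chr5:147296551-147319500) were 2.35 and 2.30 in E14 replicates 1 and 2, and its K27-K4 values were 1.93 and 3.39. Its total H3K4me3 values were 0.04 and -0.03, and its total H3K27me3 values were 0.59 and 0.60. The IgG–IgG value was -0.33, so total H3K4me3 of Cdx2 was 0.37 and 0.30 above it and both reChIPs were more than 2 log2 units above it. Between 591 and 11537 reads stood behind the reChIP values and 161 behind IgG–IgG.

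Cdx1 was the lowest of the 5 genes in both reChIP orientations in both replicates. Its K4-K27 values (chr18:61031851-61047300) were 1.24 and 1.36, and its K27-K4 values were 1.24 and 2.53. Total H3K4me3 at Cdx1 was -0.08 and -0.26 against an IgG–IgG value of -0.10, so that replicate 2 was below the background, and total H3K27me3 was 0.20 and 0.29. Over the 24 libraries other than IgG–IgG, Cdx1 was the lowest of the 5 in 15 and the next to lowest in the other 9.

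Gsx1 had K4-K27 values of 1.99 and 2.18 and K27-K4 values of 1.98 and 3.25 in E14 replicates 1 and 2 (chr5:147182101-147201150). Its paralogue Gsx2 had K4-K27 values of 1.78 and 2.08 and K27-K4 values of 1.94 and 2.96 (chr5:75066001-75087600). The 2 Gsx genes differed from each other by less than the gap between the K27-K4 replicates. Total H3K27me3 was 0.23 and 0.28 at Gsx1 and 0.47 and 0.50 at Gsx2, and total H3K4me3 was 0.0051 and -0.03 at Gsx1 and 0.0047 and 0.37 at Gsx2.

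Pdx1 had K4-K27 values of 2.04 and 2.01 and K27-K4 values of 1.64 and 2.78 in E14 cells (chr5:147265201-147282150). Its total H3K4me3 was -0.25 in both replicates, the lowest of the 5 genes in replicate 1 and the next to lowest, after Cdx1, in replicate 2, whereas its total H3K27me3 of 0.52 and 0.64 was among the highest. The total H3K27me3 value of Pdx1 was above its total H3K4me3 value in both replicates, as it was at the other 4 genes. K27-K4 was higher in replicate 2 than in replicate 1 at all 5 genes, and its SD was 0.72 to 1.03 against 0.02 to 0.21 for K4-K27 (n = 2). The replicates were sequenced in separate batches.

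**Figure D2:**
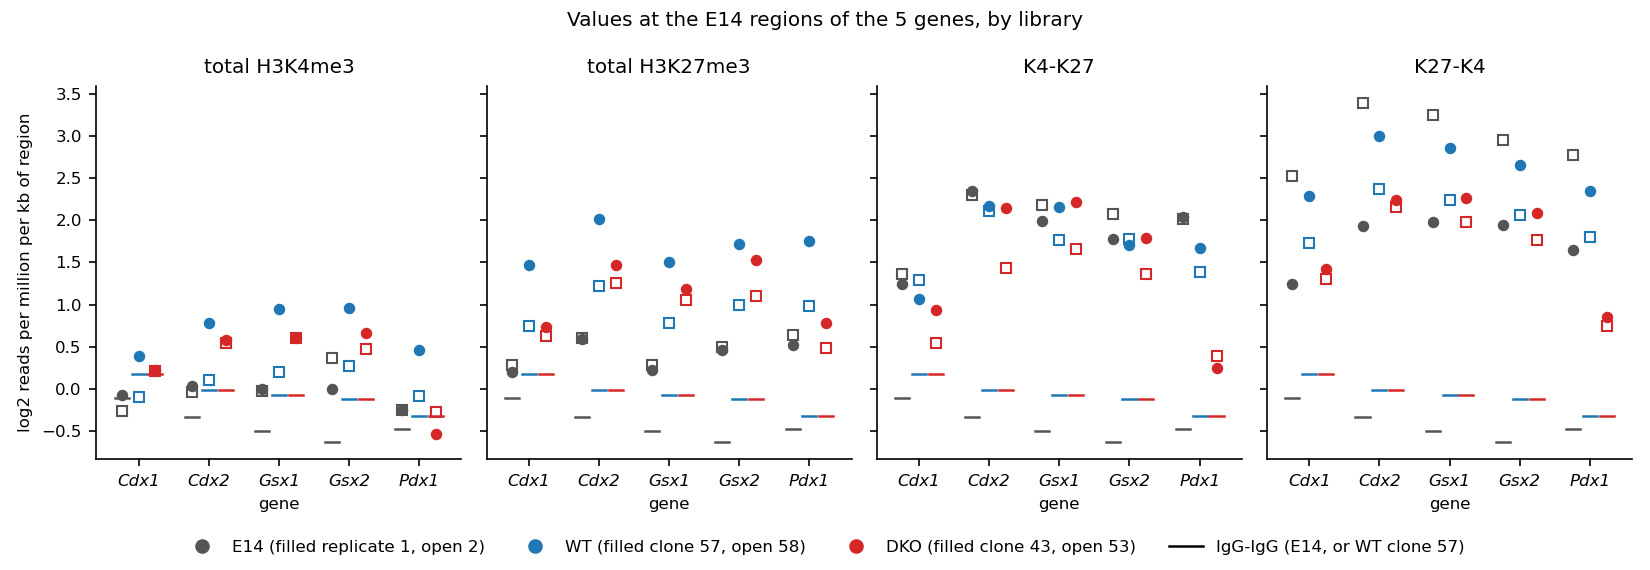
Values at the E14 reChIP region of each gene in log2 RPM per kb (vertical axis) for the 4 ChIPs, 1 point per library (grey E14, blue WT, red DKO, filled circles for replicate 1 or clones 57 and 43, open squares for replicate 2 or clones 58 and 53). Short lines give the IgG–IgG value of E14 or of WT clone 57. Both DKO points of Pdx1 lie below both WT points in K4-K27 and K27-K4, at 0.25 and 0.39 and at 0.86 and 0.74.

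Both reChIP orientations were above IgG–IgG at all 5 genes in both replicates, and the in-line totals were nearer to it. Median log2 enrichment over IgG–IgG across the 5 genes was 2.49 for replicate 1 and 2.63 for replicate 2 of K4-K27 and 2.26 and 3.59 for those of K27-K4, against medians over all shared regions of 1.00 and 1.87 and of 1.60 and 2.58. For total H3K27me3 the 5 genes had medians of 0.92 and 0.93, against 0.20 and 0.15 over all shared regions. For total H3K4me3 the order was the other way round, with 0.37 and 0.30 at the 5 genes against 0.95 and 1.16 over all shared regions. In the clones the K4-K27 order was mixed. The 5 genes had 2.00 and 1.83 in WT clones 57 and 58 against 2.21 and 1.70 over all shared regions. In DKO clones 43 and 53 they had 1.91 and 1.44 against 2.04 and 1.56. These medians are descriptions, and the regions were listed by the authors as reChIP regions, so reChIP signal there is partly fixed by the choice of region. Against the IgG–IgG library of the clones, which is higher at these regions, the mean total H3K4me3 enrichment was -0.34 at Cdx1 and 0.01 at Cdx2.

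K4-K27 and K27-K4 did not differ beyond the replicate spread at any of the 5 genes in E14 cells. K27-K4 minus K4-K27 ranged from 0.18 at Pdx1 (SE 0.92) to 0.58 at Cdx1 (SE 0.93), with adjusted p from 0.829 to 0.905 (limma, Benjamini-Hochberg). The test called 0 of 21857 shared regions (0%), although 55 had an unadjusted p under 0.05. Paired by sequencing batch the same test called 1523 regions and 0 of the 5 genes, and with each library centred on its median the 5 differences changed sign. When the 4 reChIP libraries were set against the 4 in-line totals, all 5 genes were called higher, where 29.3% of shared regions were called higher. The shared regions are those listed in both E14 reChIP tables, so a higher reChIP value in these same libraries is partly fixed by the choice of region, and the calls are given as a description. The 4 libraries of each side are 2 kinds of ChIP from 2 replicates, not 4 independent samples. The differences were 2.23 at Gsx1 (SE 0.36, adjusted p = 0.00357), 2.19 at Cdx2 (SE 0.37, adjusted p = 0.00362), 1.95 at Pdx1 (SE 0.37, adjusted p = 0.00448), 1.85 at Gsx2 (SE 0.34, adjusted p = 0.00404) and 1.55 at Cdx1 (SE 0.40, adjusted p = 0.0161), from limma. At each gene the lowest reChIP value was above the highest total, and how many shared regions do the same was not counted. With each library centred on its median, 0 of the 5 were called, with differences of 0.42 to 1.09, where 5.03% of shared regions were called higher. Without replicate 1 again 0 of the 5 were called (7.79% of shared regions), while without replicate 2 all but Cdx1 were (13.5% of shared regions).

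In the WT clones the gap between reChIPs and totals was smaller in value. At the E14 regions K27-K4 of Cdx2 was 2.99 in clone 57 and 2.37 in clone 58, K4-K27 was 2.17 and 2.11, total H3K27me3 was 2.02 and 1.23, and total H3K4me3 was 0.78 and 0.11. Clone 57 was above clone 58 in both totals and in K27-K4 at all 5 genes. K27-K4 was above K4-K27 at all 5 genes in each WT clone (by 0.26 to 1.22) and each DKO clone (by 0.05 to 0.76). This difference was not tested in the clones, and how many other regions share it was not counted. Cdx1 was the lowest of the 5 in 8 of 8 WT libraries. The reChIPs exceeded the totals by 0.97 (Cdx1) to 1.39 (Gsx1), and 0 of the 5 genes were called, where 4.35% of the shared regions were called higher (limma). The lowest reChIP value was above the highest total at Cdx2 and Gsx1, and the values overlapped at the other 3 genes. The share of all shared regions without overlap was not counted. Across the 5 genes the unadjusted p ranged from 0.00625 at Gsx1 to 0.0932 at Cdx1. With the clone as a block, Gsx1 was called (adjusted p = 0.0230, limma), where 10.3% of the shared regions were then called higher. E14 cells and clones were sequenced in different batches, so differences between them cannot be told apart from batch and were not tested.

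Pdx1 was called lower in the DKO clones in both reChIP orientations at its regions of the WT tables, and the other 4 genes were not called. It has a region in 0 of the 4 DKO tables, so these regions come from the WT libraries alone. That choice favours lower DKO values, so the calls are given as a description. Over the regions of the WT tables fitted alone the median difference was -0.34 in K4-K27 and -0.65 in K27-K4. At the E14 region of Pdx1 only K27-K4 was called, a call that other settings end. At its K4-K27 region of the WT table, which runs over the start site, the first exon and the Plut start site (chr5:147269701-147272400), the value was 3.31 in WT clone 57 and 2.28 in WT clone 58. It was -0.02 in DKO clone 43 and 0.73 in DKO clone 53, on 28 and 58 reads against 247 and 141 in the WT clones. The IgG–IgG value there was 0.28, so the DKO values lay on either side of the background and both WT values were well above it. The difference of -2.44 (SE 0.64, a 5.44-fold lower density, adjusted p = 0.0157, limma) was called, where 1.19% of the 53855 regions tested were called lower. Among the 26544 regions of the WT table, which include that of Pdx1, 2.14% were called lower when fitted alone, and Pdx1 was among them (adjusted p = 0.0170, limma).

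In K27-K4 the Pdx1 region was wider (chr5:147267151-147279300) and covered the whole gene. Its values were 2.74 and 2.18 in WT clones 57 and 58 and 1.06 and 0.95 in DKO clones 43 and 53, so the genotypes did not overlap, and the DKO values stayed above the IgG–IgG value of -0.14. The difference of -1.45 (SE 0.43, 2.73-fold, adjusted p = 0.0454, limma) was called, where 2.24% of 59260 regions were called lower. With the 31231 regions of the WT table fitted alone, 4.52% were called lower, Pdx1 among them (adjusted p = 0.0248, limma). Both calls depend on single clones. In K4-K27 the adjusted p was 0.346 without DKO clone 43, 0.145 without DKO clone 53 and 0.217 without WT clone 57, and in K27-K4 it was 0.521 without DKO clone 43 and 0.639 without DKO clone 53, with the differences between -2.82 and -1.40. Both calls held without WT clone 58 (adjusted p = 0.0283 in K4-K27 and 0.000132 in K27-K4), where 0.904% of K4-K27 and 9.29% of K27-K4 regions were then called lower. In K27-K4 the call was also lost when each library was centred on its median (adjusted p = 0.0980) and with a variance model that had neither trend nor robust estimation (adjusted p = 0.169).

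The in-line totals at Pdx1 were lower in both DKO clones without being called. Total H3K4me3 at the 1500 bp region over the start site (chr5:147269551-147271050) was 2.80 in WT clone 57 and 1.5 in WT clone 58 and 0.41 and 0.43 in DKO clones 43 and 53, next to an IgG–IgG value of 0.38. The difference was -1.73 (SE 0.64, adjusted p = 0.146, limma), where 2.47% of 64063 regions, and 2.6% of the 31935 regions of the WT table fitted alone, were called lower. It was called when each library was centred on its median (-1.76, adjusted p = 3.59e-09, where 5.07% of regions were then called lower) and without WT clone 58 (-2.38, adjusted p = 4.85e-05, where 7.36% of regions were then called lower). It was -1.08 without WT clone 57 (adjusted p = 0.174), and over the alternatives in which it was not called the adjusted p ranged from 0.0953 to 1.00. Total H3K27me3 (chr5:147267901-147280800) was 2.01 and 1.23 in the WT clones and 0.98 and 0.65 in the DKO clones, with a difference of -0.81 (SE 0.41, adjusted p = 0.322, limma) where 1.78% of 53286 regions, and 3.13% of the 21436 regions of the WT table fitted alone, were called lower. Without WT clone 57 it was -0.42 (adjusted p = 0.543, limma), and without WT clone 58 it was -1.20 (adjusted p = 0.0751, limma). The genotypes did not overlap in either total, and the share of all regions without overlap was not counted. In the DKO clones total H3K4me3 was close to IgG–IgG, and total H3K27me3 was above its IgG–IgG value of -0.14 in both.

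**Figure D3:**
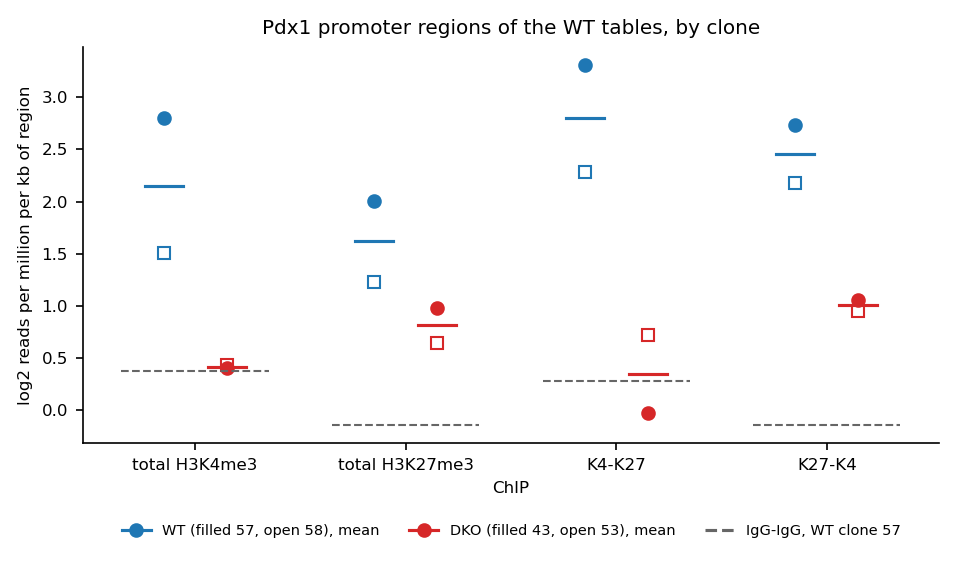
Value of each clone at the Pdx1 promoter region of the WT table of each ChIP (log2 RPM per kb), with short lines for the mean of 2 clones and a dashed line for the IgG–IgG value of WT clone 57. In all 4 ChIPs both DKO points lie below both WT points, and in total H3K4me3 and K4-K27 they lie around the IgG–IgG line.

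The WT regions were listed from WT libraries, and Pdx1 has no DKO region, so the same comparison was also made at the E14 region, which comes from the E14 tables. This alternative was chosen after the data were seen. There Pdx1 was called in K27-K4 (-1.28, SE 0.39, adjusted p = 0.0165, but 0.619 without DKO clone 43, 0.683 without DKO clone 53 and 0.0738 with neither trend nor robust estimation), where 8.29% of 21857 regions were called lower. In K4-K27 it was not (-1.21, SE 0.49, adjusted p = 0.174, where 4.35% were called lower), nor in total H3K4me3 (-0.59, SE 0.47, adjusted p = 0.994, where 5.55% were called lower) or total H3K27me3 (-0.74, SE 0.38, adjusted p = 0.441, where 2.33% were called lower), all from limma. Without WT clone 58 total H3K27me3 was called (-1.12, adjusted p = 0.00067, where 3.4% of regions were then called lower), and without WT clone 57 it was -0.35 (adjusted p = 0.540). The genotypes did not overlap in any of the 4 ChIPs. At the E14 regions they also did not overlap for Cdx1 in total H3K27me3 and both reChIPs and for Cdx2 in K27-K4. Such separation is therefore not particular to Pdx1. How many of all regions separate this way, here or at the WT regions, was not counted. This region is 16.95 kb wide and averages the promoter with flanking chromatin.

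Of the other 4 genes, 0 were called in any ChIP (limma), and 0 had an unadjusted p under 0.05. Over all regions only 1.19% to 2.47% were called lower and 6.79% to 13.2% were lower at an unadjusted p under 0.05, so a count of 0 among 4 genes does not set them apart. Cdx1 came nearest. In K4-K27 (chr18:61034551-61037850) it had 2.93 and 2.89 in WT clones 57 and 58 and 2.37 and 1.83 in DKO clones 43 and 53, a difference of -0.81 (SE 0.59, adjusted p = 0.568, limma), with no overlap between the genotypes. In K27-K4 (chr18:61034551-61039800) it had 3.50 and 2.66 in WT and 2.49 and 2.24 in DKO, a difference of -0.72 (SE 0.51, adjusted p = 0.434, limma), again with no overlap. Gsx2 did not overlap in K4-K27 either. Over the regions of the WT tables fitted alone the median differences were -0.34 in K4-K27 and -0.65 in K27-K4, the latter near that of Cdx1. Without WT clone 58 the K27-K4 difference of Cdx1 was -1.14 and was called (adjusted p = 0.0204, limma), where 9.29% of regions were then called lower, and without WT clone 57 it was -0.30 (adjusted p = 0.644, limma).

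Gsx1, at the other end of the cluster from Cdx2, had nearly equal K4-K27 values in both genotypes. They were 3.25 and 2.72 in WT clones 57 and 58 and 3.31 and 2.72 in DKO clones 43 and 53 (chr5:147184801-147192900), a difference of 0.03 (SE 0.61). Its K27-K4 difference was -0.47 (SE 0.55), its total H3K4me3 difference 0.08 (SE 0.70) and its total H3K27me3 difference -0.03 (SE 0.42). With standard errors of this size and 2 clones per genotype, large as well as small differences could be missed.

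Cdx2 had K4-K27 values of 3.76 and 3.43 in WT clones 57 and 58 and of 3.62 and 2.74 in DKO clones 43 and 53 (chr5:147304051-147309000), and the genotypes overlapped. Its differences were -0.41 in K4-K27 (SE 0.64), -0.32 in K27-K4 (SE 0.52) and -0.26 in total H3K27me3 (SE 0.42). Gsx2 had K4-K27 values of 3.21 and 3.12 in WT and 2.80 and 2.38 in DKO (chr5:75074401-75077850), and the genotypes did not overlap. The Gsx2 differences were -0.57 in K4-K27 (SE 0.61), -0.46 in K27-K4 (SE 0.48), 0.02 in total H3K4me3 (SE 0.70) and -0.07 in total H3K27me3 (SE 0.41). Total H3K4me3 of Cdx1 and Cdx2, for which the clone tables list no promoter region, differed by 0.07 (SE 0.49) and 0.12 (SE 0.54) at the E14 regions.

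**Figure D4:**
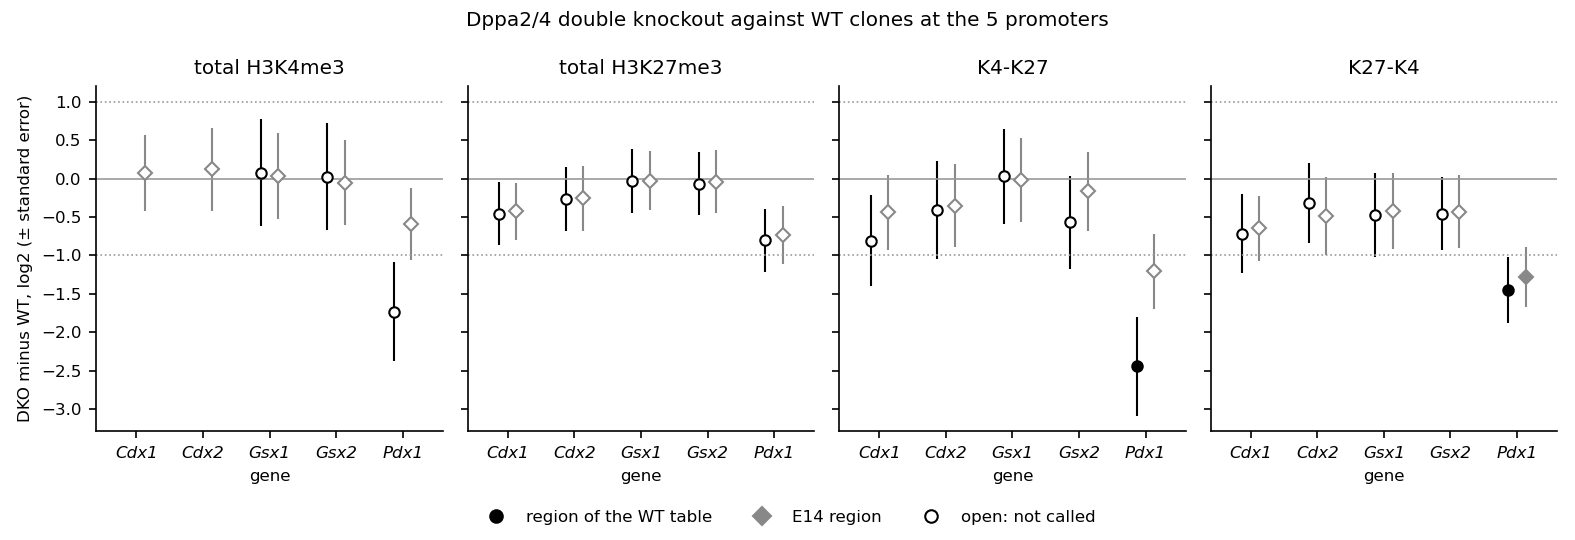
Difference DKO minus WT in log2 units with its standard error for each gene and ChIP, at the region of the WT table (black circles) and at the E14 region (grey diamonds). Filled symbols were called, and dotted lines mark a difference of 1 either way. The filled symbols are Pdx1 in K4-K27 at -2.44 and in K27-K4 at -1.45 and -1.28.

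Pdx1 was set beside its relatives at the E14 regions, as the Pdx1 value minus the mean of the other 4 genes in each clone. Pdx1 was singled out for its values in these same clones, so this is a description with no test. In K4-K27 this was -0.10 and -0.35 in WT clones 57 and 58 and -1.52 and -0.86 in DKO clones 43 and 53. In K27-K4 it was -0.34 and -0.29 in WT and -1.15 and -1.06 in DKO. The genotypes were apart in these and in both totals, with DKO minus WT of -0.96 in K4-K27, -0.78 in K27-K4, -0.64 in total H3K4me3 and -0.55 in total H3K27me3. By rank, Pdx1 was the lowest of the 5 genes in 7 of 8 DKO libraries and in 0 of 8 WT libraries. It was already next to lowest, above Cdx1, in 6 of the 8 WT libraries. The 8 libraries are 4 ChIPs of 2 clones, not 8 independent samples.

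Across the cluster, the regions called lower were the 2 at the Pdx1 promoter. From 5 kb before the Gsx1 start site to 20 kb beyond that of Cdx2, 1 of 17 K4-K27 regions and 1 of 22 K27-K4 regions were called lower, 0 of 12 total H3K4me3 and 0 of 10 total H3K27me3 regions were called, and 0 were called higher. Over all regions 1.19%, 2.24%, 2.47% and 1.78% were called lower in the same order, so with so few regions the counts do not set the cluster apart. Downstream of the Pdx1 promoter, from 5.60 to 8.90 kb past its start site over the end of the last exon, K4-K27 was 1.89 and 1.97 in WT clones 57 and 58 and 1.81 and 1.07 in DKO clones 43 and 53, a difference of -0.49 (SE 0.62, adjusted p = 0.855, limma). The DKO tables listed regions there, in K4-K27 from 6.5 to 8.30 kb and in K27-K4 from 4.10 to 8.90 kb past the start site. In the K27-K4 one the difference was -1.05 (SE 0.45, adjusted p = 0.189, limma). A total H3K4me3 region was also listed for DKO, from 6.65 to 8.75 kb. It went the other way, with 1.21 and 0.62 in WT and 1.25 and 1.38 in DKO. The difference of 0.40 (SE 0.61) was not called. Upstream of Cdx2, in the K27-K4 region chr5:147312601-147317850, which overlaps the gene Urad, values were 2.76 and 2.37 in WT and 1.24 and 1.33 in DKO, a difference of -1.28 (SE 0.44, adjusted p = 0.109, limma) that was not called. Larger differences that were not called lay inside Plut upstream of Pdx1, at -2.32 in a 300 bp K4-K27 region (chr5:147257101-147257400, adjusted p = 0.248, limma) and at -1.31 in a K27-K4 region (adjusted p = 0.315, limma). The K4-K27 one rests on 10 and 9 reads in the WT clones and 1 and 5 in the DKO clones.

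**Figure D5:**
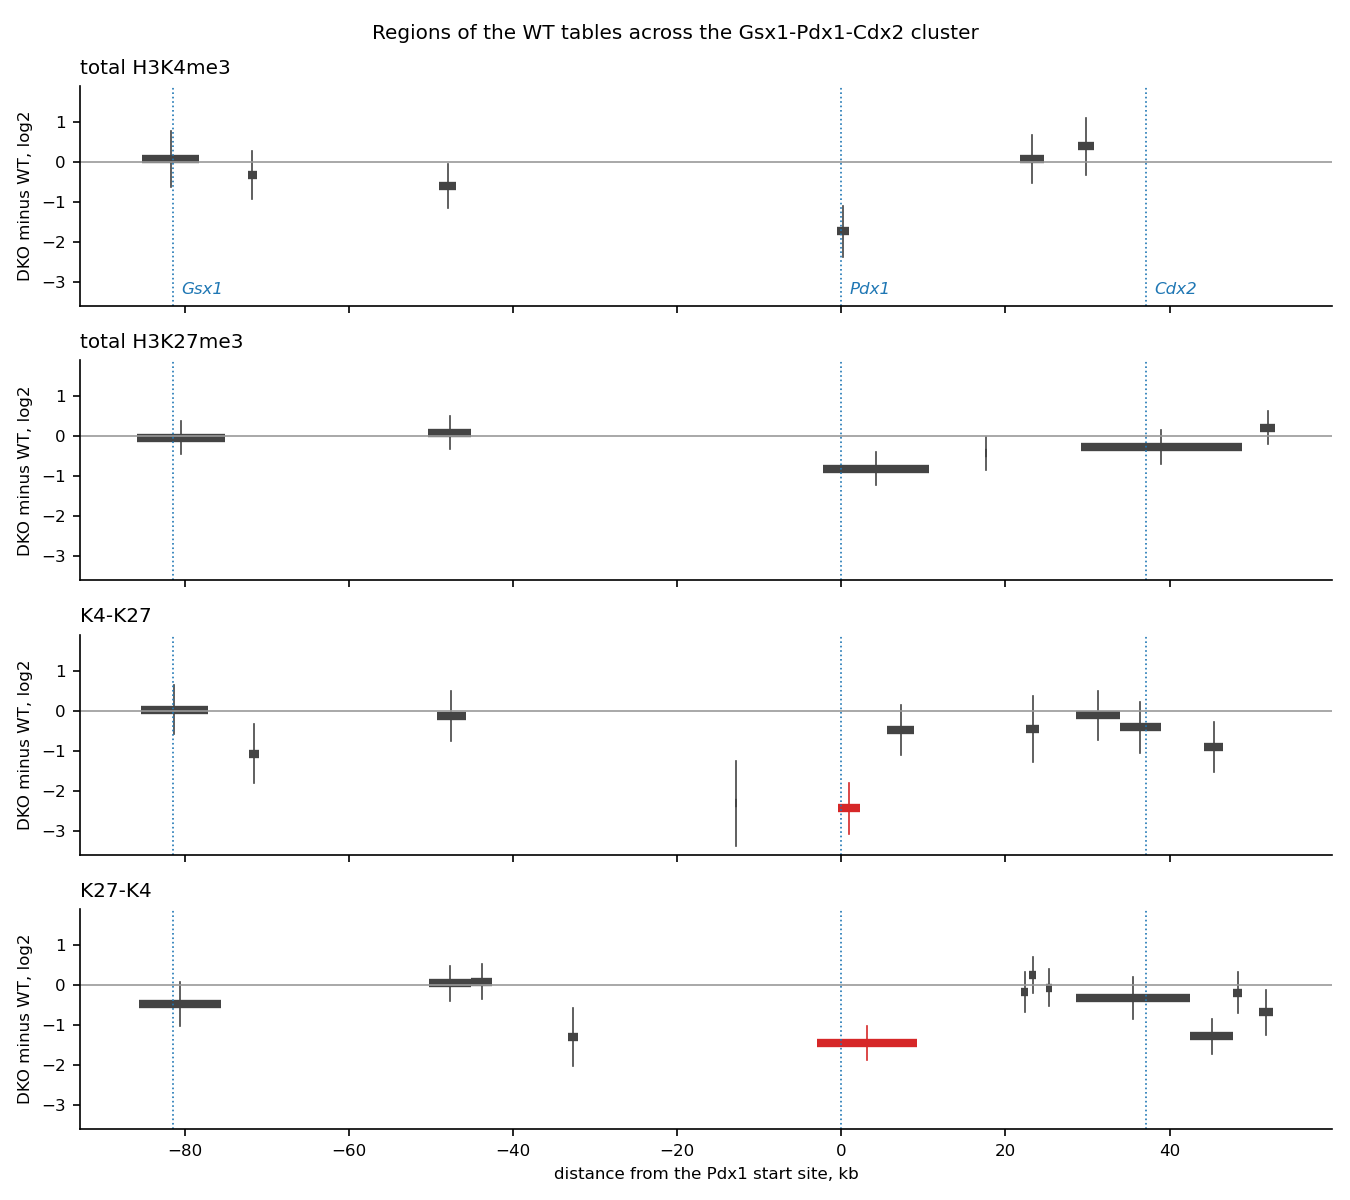
Difference DKO minus WT (log2 units) of every region of the WT tables across the cluster, by distance in kb from the Pdx1 start site. Thick bars span each region, thin lines are ± the standard error, red marks called regions and dotted lines the start sites of Gsx1, Pdx1 and Cdx2. The 2 red bars, at -2.44 in K4-K27 and -1.45 in K27-K4, lie over the Pdx1 start site.

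Of 41 genes listed for their relation to these 5, 0 were called in any of the 4 DKO comparisons (limma). An unadjusted p under 0.05 was reached by 5 of them in K27-K4, 2 in K4-K27, 1 in total H3K4me3 and 0 in total H3K27me3, each with a lower value in the DKO clones. Over all regions tested 13.2%, 9.41%, 6.79% and 8.15% were lower at an unadjusted p under 0.05 in the same order. The list holds Cdx4, receptor tyrosine kinase genes neighbouring the ParaHox loci, and genes of trophectoderm, posterior axis, gut endoderm, pancreas and ventral forebrain. K4-K27 regions were tested for 35 of them and K27-K4 regions for 36, of which 33 and 35 had a difference below 0. Their median difference was -0.49 in K4-K27, against -0.01 over all regions tested, and -0.53 in K27-K4, against -0.15. With the regions of the WT tables fitted alone the medians over all regions were -0.34 and -0.65, so the K27-K4 median of the list was not below that of the WT regions. In the totals the medians were -0.05 for H3K4me3 (28 genes) and -0.02 for H3K27me3 (33 genes). The total H3K27me3 region of the listed gene Pdgfrb is also the DKO region of Cdx1, so it is not separate from that gene. Without WT clone 58, 9 were called in K27-K4, where 5504 of 59260 regions (9.29%) were then called lower.

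Cdx4, the X-linked member of the Cdx family, had K27-K4 values of 2.76 and 1.94 in WT clones 57 and 58 and of 1.58 and 0.96 in DKO clones 43 and 53. Its difference was -1.08 (SE 0.44, adjusted p = 0.171, limma), and in K4-K27 it was -0.12 (SE 0.63). The vascular endothelial growth factor receptor gene Flt1 and the cytokine receptor gene Flt3, which lie beyond Cdx2 on chromosome 5, had K4-K27 differences of -0.48 (SE 0.67) and -0.49 (SE 0.64). Pdgfra, Kit and Kdr, receptor genes near Gsx2, had K4-K27 differences of -0.06 (SE 0.59), -0.03 (SE 0.64) and -0.39 (SE 0.64).

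Genes with the most similar levels were sought by the root mean square difference of log2 values between promoter regions of the E14 K27-K4 table over the 24 libraries other than IgG–IgG. Nearest to Pdx1 were Pax1 and AI646519 (0.163), which share 1 region, and H2-Q1 (0.211). Nearest to Cdx2 were Onecut2 (0.122), Nkx2-3 (0.124) and Lbx1 (0.139), all homeobox genes. Nearest to Gsx1 were Efhd1 (0.119), Tbx20 (0.124) and Adra2b (0.137), and nearest to Gsx2 were Lhx6 (0.163) and 4930412O13Rik with 9230102O04Rik, which share 1 region (0.168). Nearest to Cdx1 were Sfrp5 (0.203) and Matn4 with Rbpjl, which share 1 region (0.208). Among the 5 genes themselves, Gsx1 and Gsx2 (0.229) and Cdx2 and Gsx1 (0.230) were the closest pairs and Cdx2 and Pdx1 (0.766) the most distant.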

How the data were processed

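Sequential ChIP with in-line totals and IgG–IgG controls was read from 12 tables (240 columns of the 26 libraries, while 32 columns that match no sample of the series were not used). The authors trimmed reads (Trim Galore 0.6.6), aligned them to mm10 (BWA 0.7.13, SAMtools 1.9), marked duplicates (Picard 2.6.0) and quantified regions in SeqMonk, keeping duplicates and mapping quality over 20. The paper describes peak calling with EPIC2 against IgG–IgG, while MACS2 is listed among the upstream tools without a version. Which of them gave the regions of these tables is not stated in the sources used here. The deposited unit is log2 RPM per kb of region, without IgG–IgG subtraction. Values step in whole reads (tolerance 0.05), with 0.9 reads entered for 0, so read numbers could be recovered.

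Groups were compared with limma 3.58.1 (R 4.3.3; trend, robust), with Benjamini-Hochberg adjustment over all regions tested and calls at a log2 difference over 1 and adjusted p under 0.05. DKO fits used the regions of the WT and DKO tables of a ChIP. Identical coordinates in the WT tables left no region of the 5 genes for reChIPs against totals, so the shared E14 regions were used. The fits were tested on simulated data. The 5 genes, the 41 listed genes and the tests were chosen with earlier results of these data known. Named genes were the 5, listed genes called in a DKO fit, Cdx4, Flt1, Flt3, Kit, Kdr and Pdgfra, the 3 genes nearest in level to each of the 5, and Dppa2 and Dppa4. The cell type markers were named as well. Plut, Pdgfrb and Urad were named outside this rule because they overlap regions described. E14 libraries of 1 replicate share a sequencing batch, and their deviations correlated between -0.12 and 0.58. The main E14 fits were unpaired, and pairing by replicate was run as an alternative. Alternatives covered scaling, variance model, filter, pairing, regions, promoter width, IgG–IgG library and each replicate left out. P-values measure the spread between 2 replicates or 2 clones, except that for reChIPs against totals the 4 libraries of a side are 2 orders or 2 marks from 2 replicates or clones, so those p-values mix kinds of ChIP and do not rest on 4 independent samples.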

Additional observations from a re-analysis of the deposited data

How the results depend on the processing

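The counts of regions called in both directions moved with the processing. With each library centred on its median, total H3K4me3 in DKO against WT clones went from 1745 to 3899 calls, total H3K27me3 from 1468 to 0, reChIPs against in-line totals from 6404 to 1101 in E14 and from 0 to 10 in the WT clones (332 regions). Without the lowest quartile of mean values there were 336 total H3K4me3 and 314 total H3K27me3 calls, and with WT regions only 829 and 675. A variance model with neither trend nor robust estimation gave 7715 K4-K27 calls instead of 643. At the shared E14 regions, added after the data were seen, there were 618 total H3K27me3, 1060 K4-K27 and 2043 K27-K4 calls (1341 at the clone regions) and 950 for WT reChIPs against totals. Leaving out each clone gave 74 to 6018 total H3K4me3, 133 to 650 total H3K27me3, 243 to 558 K4-K27, 482 to 8630 K27-K4 and, for WT reChIPs against totals, 0 to 1 calls. Leaving out each E14 replicate gave 1702 to 2950. The cause was not tested. The replicate block gave 1523 calls for E14 orientation (0 without it) and 4 for the WT reChIPs against totals.

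For single genes, centring turned the sign of Gsx2 total H3K4me3 (-0.0075) and of the E14 orientation differences of Cdx1 (-0.10), Cdx2 (-0.34), Gsx1 (-0.15), Gsx2 (-0.16) and Pdx1 (-0.50). Leaving out each clone, uncalled differences crossed 0 in total H3K4me3 for Cdx1 (-0.17 to 0.31), Cdx2 (-0.22 to 0.46), Gsx1 (-0.42 to 0.58) and Gsx2 (-0.49 to 0.54), in total H3K27me3 for Cdx2 (-0.67 to 0.14), Gsx1 (-0.44 to 0.38) and Gsx2 (-0.44 to 0.31), in K4-K27 for Cdx2 (-0.85 to 0.029) and Gsx1 (-0.27 to 0.33), and in K27-K4 for Cdx2 (-0.68 to 0.050). The DKO minus WT differences of Pdx1 were below 0 under each alternative run. Leaving out an E14 replicate leaves the orientation test no residual degrees of freedom, so it was not run. With 2 samples per group and 28 to 58 reads at Pdx1 in the DKO K4-K27 libraries, large as well as small changes may not have been detectable.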
